A study of Mus musculus with 8 samples.

Results

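Chchd10, Chchd2, Chchd4, Gfer, Chchd3, Chchd6, Cox17, Cox19 and Chchd7 are nuclear genes whose products work in the mitochondrial intermembrane space, the narrow room between the outer and inner mitochondrial membranes. They were taken by gene symbol from the table of gene counts, in which all 9 were present among 14012 genes. Their RNA was followed in quadriceps femoris (QF), a large thigh muscle, of 4 mice labelled knockout, KO (Grpel1 smk -/-), and 4 mice labelled control, WT (Grpel1 flox/flox), with 1 polyA library for each mouse. Both groups carried the floxed Grpel1 gene, which encodes a nucleotide exchange factor of the matrix HSP70, and in the knockout line a Cre-ERT2 recombinase made under the human skeletal muscle α-actin (HSA) promoter deletes it in muscle fibres after tamoxifen. The study's text calls floxed control littermates untreated and also describes floxed mice with Cre but no tamoxifen and with tamoxifen but no Cre, without saying which of these the control mice sequenced here were. The age of the 8 mice is not given in their labels.

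Many proteins of the intermembrane space are made in the cytosol and enter without the presequence that leads matrix proteins to the HSP70 motor. MIA40, the product of Chchd4, catches them by their cysteines and folds them by forming disulfide bonds, and GFER (also named ALR) takes the electrons from MIA40 and passes them on to cytochrome c or oxygen. Most clients carry pairs of cysteines with 9 residues between them, the CX9C motif, and MIA40 itself has the same fold.

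The motif can be read in the coding sequences, which are shown for the relay oxidase and for the pairs of related genes compared below. Each run begins and ends with a cysteine codon of a CX9C spacing on the coding strand of the principal GENCODE M21 transcript, on the GRCm38 assembly that the authors also used, and the cysteine codons of the spacings are in capitals. The runs lie in exon 3 of 4 of Chchd10 (chr10:75937349-75937441, + strand) and of Chchd2 (chr5:129882442-129882534, - strand), in exon 3 of 3 of Chchd4 (chr6:91465144-91465245, - strand), and in exon 7 of 8 of Chchd3 (chr6:32803908-32804003, - strand) and of Chchd6 (chr6:89384622-89384717, - strand).
Chchd10: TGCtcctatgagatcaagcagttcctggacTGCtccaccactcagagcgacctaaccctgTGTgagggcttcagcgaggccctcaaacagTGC
Chchd2: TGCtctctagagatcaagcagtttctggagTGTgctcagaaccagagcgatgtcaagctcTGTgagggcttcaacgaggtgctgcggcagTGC
Chchd4: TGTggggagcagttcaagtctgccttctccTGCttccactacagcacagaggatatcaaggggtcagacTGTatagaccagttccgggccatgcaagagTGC
Chchd3: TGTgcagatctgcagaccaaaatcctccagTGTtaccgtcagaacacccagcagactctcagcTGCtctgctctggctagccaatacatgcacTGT
Chchd6: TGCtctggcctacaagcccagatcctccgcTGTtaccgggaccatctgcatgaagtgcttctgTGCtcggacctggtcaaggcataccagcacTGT
Each run has 4 marked codons, and in Chchd10 and Chchd2 the middle pair is spaced by 9 codons too. The runs of Chchd10 and Chchd2 were identical at 66 of 93 bases (71%), and those of Chchd3 and Chchd6 at 55 of 96 bases (57.3%). Cox17, Cox19 and Chchd7 each held 2 such spacings, whereas the 198 codons of Gfer held none.

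The 8 libraries held 16017565 to 20361144 counts, and Chchd6, the gene with the fewest counts among the 9, had 49 to 70 counts in the control libraries. Levels are CPM, counts scaled to the TMM-adjusted library size of edgeR, a scaling for composition whose factors were 0.747 to 0.844 in the control and 1.19 to 1.33 in the knockout libraries. The Grpel1 count did not separate the labels, at 64.1 to 71.2 CPM in the control and 59.9 to 71.9 CPM in the knockout libraries (log2 fold change -0.07, adjusted p = 0.49 by edgeR), so this count does not check the labels from which every direction below is taken. Markers of fast fibres identified the tissue as muscle. Their summed level was 202431 to 258833 CPM in the control against 67290 to 96393 CPM in the knockout libraries, with 6 of 8 genes lower and 1 higher. The fast myosin gene Myh4 fell from a mean of 103899 to 20582 CPM, while Myh1, the 1 higher gene, rose from 7246 to 16074 CPM. In a whole muscle, fewer cells of a type and less RNA per cell cannot be told apart.

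Of the 9 genes, 4 rose in the libraries labelled knockout (Chchd10, Chchd4, Chchd6 and Cox19), 3 fell (Chchd2, Chchd3 and Chchd7), and Gfer and Cox17 did not pass an adjusted p under 0.01 in the quasi-likelihood test of edgeR, adjusted by Benjamini-Hochberg over all 14012 genes; with library totals in place of TMM, a scaling that moved the median of all genes to 0.73, 6 rose and none fell (7 and 0 at an unadjusted p under 0.05). Over all genes, 23.6% were called higher, 21.1% lower and 44.7% in either direction, which became 8498 higher and 873 lower genes with library totals, against 3303 and 2962. The groups did not overlap for 7 of the 9 genes, and for 53.4% of all genes. The median log2 fold change of the 9 genes was 0.34, against 0.065 over all genes. On the TMM scale the genes thus moved in both directions, as genes did over the whole table. The related genes Chchd10 and Chchd2, and Chchd3 and Chchd6, moved apart, and their ratios, given below, do not depend on the scaling.

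**Figure D1:**
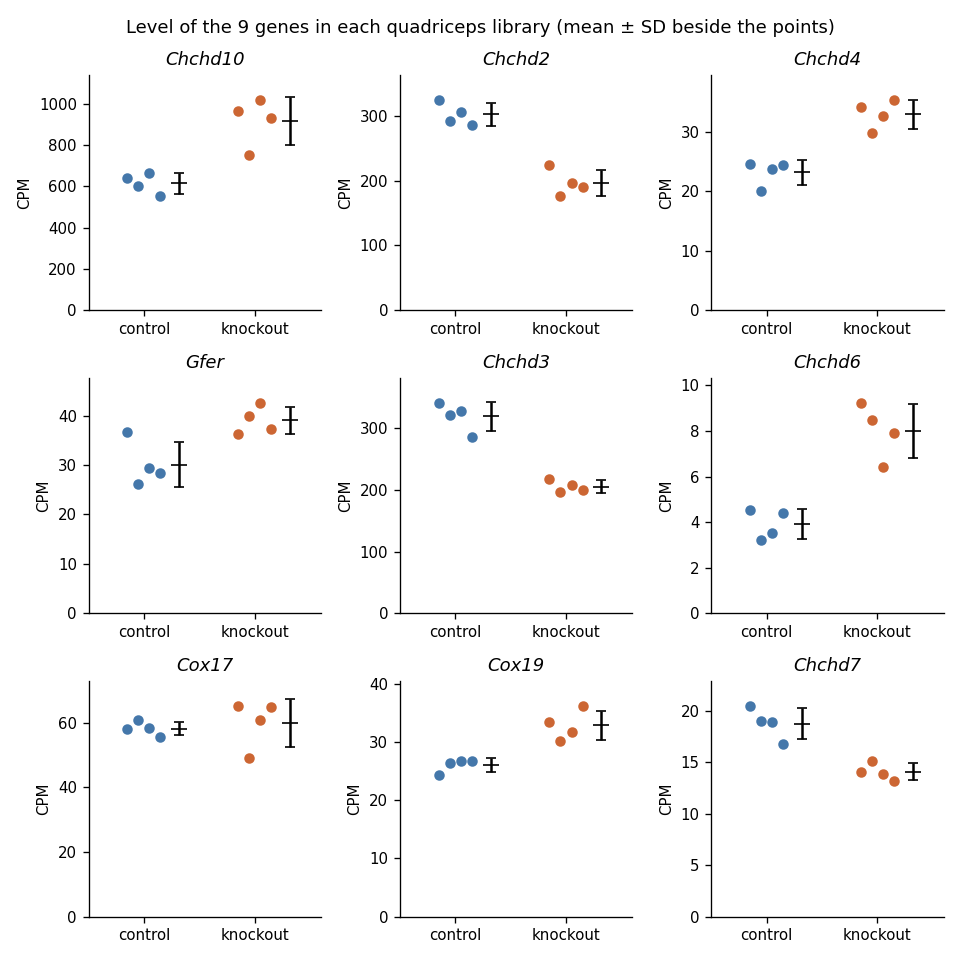
CPM of each of the 9 genes (vertical axes, each starting at 0) in the 4 control libraries (blue) and the 4 knockout libraries (orange), with the mean ± SD drawn beside the points. The groups overlap for Gfer and Cox17, and for the other 7 genes they are apart on this TMM scale.

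Relative to exon length, the genes spanned a wide range of levels. In the control libraries Chchd10 led with 649 ± 52.0 CPM per kb (SD, n = 4), rank 69 of all genes, followed by Chchd2 with 332 ± 18.7, Chchd3 with 223 ± 16.6 and Cox17 with 134 ± 4.85 CPM per kb. Cox19 had 34.2 ± 1.57, Chchd4 18.6 ± 1.72 and Gfer 16.96 ± 2.55 CPM per kb, and the ranges of the last pair overlapped. Chchd7 with 6.12 ± 0.494 and Chchd6 with 3.47 ± 0.581 CPM per kb were the least abundant. In the knockout libraries Chchd10 reached 968 ± 122 CPM per kb and rank 36, and Chchd3 and Cox17 overlapped at 144 ± 6.97 and 138 ± 17.2 CPM per kb. There Chchd6 at 7.11 ± 1.04 CPM per kb stood above Chchd7 at 4.59 ± 0.270 without overlap. This order rests on the exon lengths used, 1126 bases for Chchd6 and 3067 for Chchd7. In CPM it was the reverse, with means of 8.01 for Chchd6 and 14.1 for Chchd7. The gene end used for Chchd7, 3951382, lies beyond its principal GENCODE transcripts, which end at or before 3943528, so its level per kb may be understated.

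Chchd10 and Chchd2 encode closely related CX9C proteins that bind each other. CHCHD10 is mutated in forms of amyotrophic lateral sclerosis, frontotemporal dementia and myopathy, and CHCHD2 in a form of Parkinson's disease. Chchd10 (Entrez Gene 103172; chr10:75935573-75937734, + strand) had 639, 600, 667 and 554 CPM in control libraries 1 to 4 and 964, 752, 1019 and 934 CPM in knockout libraries 1 to 4. Every knockout library lay above every control library, and knockout library 2 was the lowest of its group. The mean rose from 615 ± 49.3 to 917 ± 116 CPM, 1.49-fold (log2 fold change 0.58, standard error 0.11, adjusted p = 0.0012 by edgeR). Chchd10, with 7908 to 24689 counts, shares 12 bases with Gm867, a gene on the opposite strand with a mean of 62.4 counts, and it is not stated whether the counting used the strand.

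Chchd2 (Entrez Gene 14004; chr5:129881161-129887470, - strand) went the other way. It had 325, 292, 306 and 287 CPM in the control libraries and 224, 176, 196 and 191 CPM in the knockout libraries. No value of one group fell within the other. The mean of 302 ± 17.02 CPM fell to 197 ± 20.1 CPM on the TMM scale, a log2 fold change of -0.62 with a standard error of 0.086 (adjusted p = 1.7e-04 by edgeR), while with library totals alone it was 0.049 (adjusted p = 0.53), or -0.68 relative to the median of all genes. GENCODE lists 1 named pseudogene of Chchd2, and reads that map to several places were left out of the counts.

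Because both genes were counted in the same library, their ratio does not depend on the scaling. There were 1.97, 2.06, 2.18 and 1.93 counts of Chchd10 for each count of Chchd2 in the control libraries, and 4.30, 4.27, 5.19 and 4.90 in the knockout libraries. Every knockout ratio was far above the highest control ratio. The mean log2 ratio went from 1.02 ± 0.08 to 2.22 ± 0.14, a difference of 1.19 (standard error 0.080), or 2.29-fold (two-sided exact permutation p = 0.0286, which no split of 4 and 4 can go below; 0.0381 after Benjamini-Hochberg adjustment over 4 pairs). Per exon length, Chchd10 made up 66.1 ± 1.21% of the sum of both transcripts in the control and 81.7 ± 1.45% in the knockout libraries.

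The stretch before the RefSeq start of Chchd10 is shown because it holds 2 copies of the CARE motif TGATGCAA, an element that ATF4 and C/EBP factors are known to bind in genes of the integrated stress response. The 250 bases lie at chr10:75932880-75933129 (GRCm38.p6, + strand), and their RefSeq start is 2443 bases upstream of the gene start in the authors' table. GENCODE has principal transcripts of Chchd10 that start at 75933130 and at 75935573, the authors' gene start. The stretch before 75935573 was not searched. The capitals mark the motif together with the bases after it that complete the octamer ATGCAAAT of POU factors.
Chchd10: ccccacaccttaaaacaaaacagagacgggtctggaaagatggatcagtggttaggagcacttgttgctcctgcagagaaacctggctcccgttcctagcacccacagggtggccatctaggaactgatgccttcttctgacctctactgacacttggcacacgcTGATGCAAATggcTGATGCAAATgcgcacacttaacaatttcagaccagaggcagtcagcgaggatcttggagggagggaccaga
TGATGCAA began at positions -85 and -72 from the start, and each copy overlapped an ATGCAAAT that began at -83 or -70. On both strands TGATGCAA was found in 0.895% of the 32851 RefSeq windows of 300 bases, and only 2 windows, those of Chchd10 and Slc7a11, had 2 copies. ATGCAAAT was found in 1.74% of the windows. RefSeq windows were at hand for 6 of the 9 genes, and TGATGCAA was in none of the windows of Chchd4, Gfer, Chchd3, Chchd6 and Cox19. Other motifs searched were GCGCANGCG of NRF1 (6.25% of windows, found for Chchd4 at -195), CCGGAAG of ETS factors (8.86%, found for Chchd3 at -130), CACGTG (7.15%, found for Chchd3 at -3), and TGACGTCA (1.79%) and TCAAGGTCA (0.423%), which were found in none of the 6. The motifs were chosen with the expression results known, and a match describes letters, not binding.

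The relay itself consists of Chchd4 and Gfer. Chchd4 (Entrez Gene 72170; chr6:91464276-91473423, - strand), the MIA40 oxidase and import receptor, had 24.6, 20.03, 23.7 and 24.4 CPM in the control and 34.1, 29.7, 32.6 and 35.3 CPM in the knockout libraries. The lowest knockout library, library 2, was still above all controls. Its mean rose from 23.2 ± 2.14 to 32.9 ± 2.42 CPM (log2 fold change 0.51, standard error 0.088, adjusted p = 6.8e-04 by edgeR).

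Gfer (Entrez Gene 11692; chr17:24693191-24696156, - strand), the FAD-linked sulfhydryl oxidase that keeps MIA40 oxidised, had 36.6, 26.1, 29.3 and 28.4 CPM in the control and 36.4, 39.9, 42.5 and 37.3 CPM in the knockout libraries. Control library 1 was above knockout library 1, and the other controls were below all knockouts. The means were 30.1 ± 4.53 and 39.0 ± 2.77 CPM, with a log2 fold change of 0.38 (95% confidence interval 0.14 to 0.61) and an adjusted p of 0.011 by edgeR, just above the threshold. Without control replicate 1 the log2 fold change was 0.48 and the adjusted p 9.7e-04. The ratio of Chchd4 to Gfer within a library overlapped between the groups, with a log2 difference of 0.12 (standard error 0.12; exact permutation p = 0.314).

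Chchd3 and Chchd6 encode MIC19 and MIC25, related subunits of MICOS, the complex that shapes the junctions of the cristae. Chchd3 (Entrez Gene 66075; chr6:32792227-33060152, - strand) had 341, 322, 329 and 285 CPM in the control and 218, 196, 209 and 199 CPM in the knockout libraries. The groups were well apart. The mean fell from 319 ± 23.8 to 206 ± 9.98 CPM on the TMM scale, a log2 fold change of -0.63 with a standard error of 0.076 (adjusted p = 6.3e-05 by edgeR), while with library totals alone it was 0.036 (adjusted p = 0.59), or -0.70 relative to the median of all genes.

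Chchd6 (Entrez Gene 66098; chr6:89383146-89595652, - strand) was the scarcer of the pair and changed most among the 9 genes. It had 56, 49, 49 and 70 counts in the control and 221, 185, 156 and 199 counts in the knockout libraries, which were 4.52, 3.21, 3.51 and 4.41 CPM against 9.22, 8.47, 6.44 and 7.91 CPM. The lowest knockout library was library 3, above all controls. The mean rose 2.05-fold from 3.91 ± 0.654 to 8.01 ± 1.18 CPM (log2 fold change 1.03, standard error 0.16, adjusted p = 3.5e-04 by edgeR). For each count of Chchd6 there were 75.3, 100.4, 93.8 and 64.7 counts of Chchd3 in the control libraries and 23.7, 23.2, 32.4 and 25.2 in the knockout libraries. The log2 ratio of Chchd3 to Chchd6 differed by -1.67 (standard error 0.18), that is, it was 3.18-fold lower in the knockout libraries (exact permutation p = 0.0286, adjusted over the 4 pairs 0.0381). Chchd3 remained the far more abundant of the pair in every library.

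**Figure D2:**
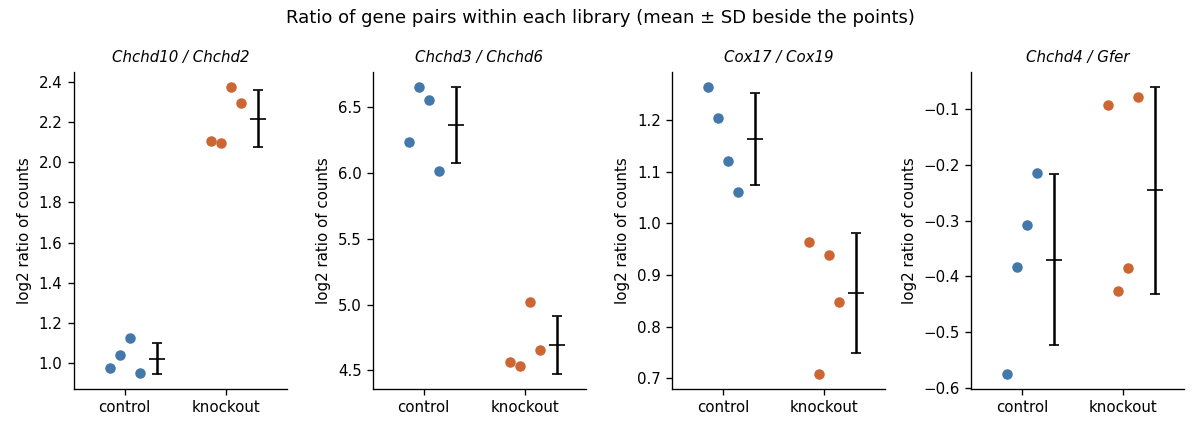
Log2 ratio of counts of 4 gene pairs (vertical axes, which differ between panels and do not start at 0) in each control (blue) and knockout (orange) library, with the mean ± SD beside the points. The groups are apart for Chchd10 over Chchd2 (1.02 against 2.22), Chchd3 over Chchd6 (6.36 against 4.69) and Cox17 over Cox19 (1.16 against 0.86), and overlap for Chchd4 over Gfer.

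Cox17, Cox19 and Chchd7 belong to the assembly of cytochrome c oxidase. Cox17 (Entrez Gene 12856; chr16:38346999-38352763, + strand), the copper chaperone that loads the copper sites of the enzyme through SCO proteins and COX11, had 58.2, 60.8, 58.3 and 55.6 CPM in the control and 65.1, 49.1, 60.9 and 64.9 CPM in the knockout libraries. Knockout library 2 held the lowest value of all and the other knockout libraries the highest values. The means were 58.2 ± 2.11 and 60.0 ± 7.50 CPM, with a log2 fold change of 0.04 (95% confidence interval -0.16 to 0.25, adjusted p = 0.70 by edgeR), whose sign turned with RLE factors and DESeq2.

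Cox19 (Entrez Gene 68033; chr5:139337822-139345166, - strand), which works with COX11 in copper delivery, had 24.2, 26.4, 26.8 and 26.7 CPM in the control and 33.4, 30.1, 31.7 and 36.1 CPM in the knockout libraries. The groups did not overlap, and control library 1 was the lowest. Its mean rose from 26.01 ± 1.19 to 32.8 ± 2.56 CPM (log2 fold change 0.34, standard error 0.075, adjusted p = 0.0034 by edgeR). The adjusted p was 0.014 without knockout replicate 1, 0.011 without knockout replicate 3 and 0.017 without knockout replicate 4, none of which passes the threshold. Counts of Cox17 for each count of Cox19 were 2.40, 2.31, 2.18 and 2.09 in the control and 1.95, 1.63, 1.92 and 1.80 in the knockout libraries, a log2 difference of -0.30 (standard error 0.073; exact permutation p = 0.0286, adjusted over the 4 pairs 0.0381).

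Chchd7 (Entrez Gene 66433; chr4:3938888-3951382, + strand), the homologue of yeast COX23, had 20.4, 18.98, 18.9 and 16.8 CPM in the control and 14.1, 15.2, 13.9 and 13.2 CPM in the knockout libraries. All knockout libraries lay below all controls. The mean fell from 18.8 ± 1.51 to 14.1 ± 0.828 CPM on the TMM scale, a log2 fold change of -0.41 with a standard error of 0.087 (adjusted p = 0.0023 by edgeR), while with library totals alone it was 0.26 (adjusted p = 0.025), or -0.48 relative to the median of all genes.

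**Figure D3:**
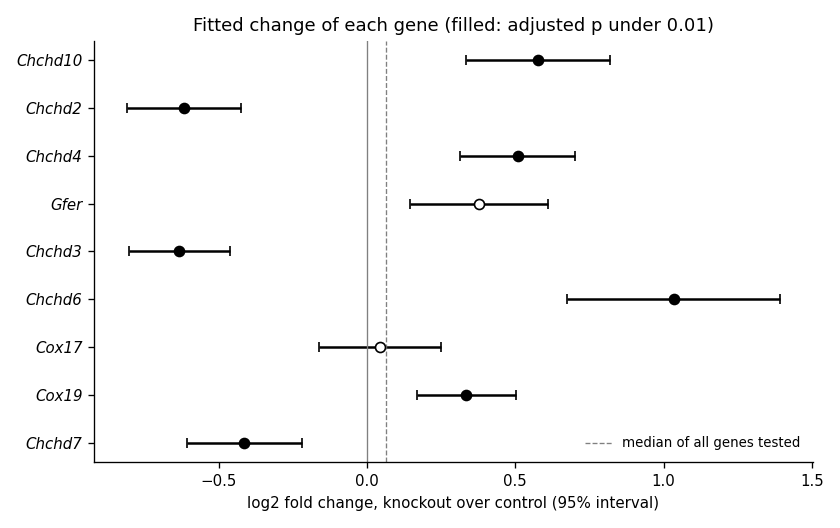
Log2 fold change of each gene, knockout over control, with its 95% confidence interval (horizontal axis) from edgeR's quasi-likelihood fit, where filled points passed an adjusted p under 0.01 and the dashed line is the median of all 14012 genes (0.065). Chchd10, Chchd4, Chchd6 and Cox19 lie above 0 and Chchd2, Chchd3 and Chchd7 below it on the TMM scale, although with library totals alone the values of Chchd2, Chchd3 and Chchd7 are 0.049, 0.036 and 0.26.

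The other genes of the pathway were read from lists. Of 14 other genes for CX9C proteins, most of them subunits or assembly factors of the respiratory chain, 7 fell, 1 rose and 6 did not pass the test, with a median log2 fold change of -0.40, while library totals alone gave 1 lower and 8 higher. Cmc2, a cytochrome c oxidase assembly factor, fell from 19.6 ± 1.503 to 8.72 ± 0.992 CPM (log2 fold change -1.17, adjusted p = 9.1e-06 by edgeR). Ndufa8, a complex I subunit, fell from 196 ± 9.39 to 108 ± 8.60 CPM (log2 fold change -0.86), and Coa4, an oxidase assembly factor, rose from 3.92 ± 0.726 to 7.13 ± 0.766 CPM (log2 fold change 0.87, adjusted p = 8.3e-04).

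The small TIM proteins are the other clients of MIA40, with a shorter cysteine spacing, and escort hydrophobic precursors to the inner membrane. Of the 6 genes 2 rose, 1 fell and 3 did not pass the test (6 rose and 0 fell with library totals alone). Timm10 rose from 15.2 ± 1.18 to 34.7 ± 1.34 CPM, a log2 fold change of 1.20 (adjusted p = 1.0e-06 by edgeR), and Timm8a1, with only 24 to 37 counts in the control libraries, from 2.05 ± 0.306 to 4.401 ± 0.827 CPM, a log2 fold change of 1.10. Timm8b fell by 0.44 on the log2 scale.

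Of 4 partners of the relay 1 rose, 1 fell and 2 did not pass the test (3 rose and 1 fell with library totals alone). Cycs, which encodes the cytochrome c that accepts electrons from GFER, fell from 241 ± 22.6 to 124 ± 9.79 CPM, a log2 fold change of -0.96 (adjusted p = 1.1e-05 by edgeR). Ccs, the copper chaperone of SOD1 and a MIA40 client, rose from 11.4 ± 0.994 to 16.4 ± 1.28 CPM, a log2 fold change of 0.53.

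Among 10 other genes of MICOS and the complex it forms with the outer membrane (MIB), 3 rose, 4 fell and 3 did not pass the test (7 rose and 1 fell with library totals alone). Apoo, the gene of MIC26, fell from 64.7 ± 7.47 to 31.05 ± 2.69 CPM (log2 fold change -1.06, adjusted p = 1.1e-05 by edgeR). The outer membrane gene Mtx2 rose from 25.5 ± 2.66 to 44.7 ± 2.38 CPM (log2 fold change 0.81), and 2410015M20Rik, the gene of MIC13, from 38.0 ± 3.86 to 57.9 ± 2.12 CPM (log2 fold change 0.61). Calls in both directions were thus present among the other genes of the complex on the TMM scale, as over all genes (23.6% higher, 21.1% lower).

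Of 4 genes of copper delivery to the oxidase, 1 rose, 2 fell and 1 did not pass the test (2 rose and 0 fell with library totals alone), and Sco2 was not analysed here. Sco1, which receives copper from COX17, rose by 0.52 on the log2 scale (adjusted p = 0.0026 by edgeR), a call that was lost without knockout replicate 4 (0.50, adjusted p = 0.012). Slc25a3, the phosphate and copper carrier, fell by 0.50 and Cox11 by 0.46 on the log2 scale.

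The last list held 5 genes tied to CHCHD2 and CHCHD10, by the OMA1 to DELE1 stress relay or by binding, of which 1 rose, 3 fell and 1 did not pass the test (2 rose and 0 fell with library totals alone). Ghitm, which encodes an inner membrane protein also named TMBIM5 or MICS1, had 506, 522, 550 and 498 CPM in the control and 1186, 793, 1449 and 1256 CPM in the knockout libraries. Knockout library 2 was the lowest knockout, as it was for Chchd10, Chchd2, Chchd3, Chchd4, Cox17 and Cox19. Knockout library 3 was the highest, as for Chchd10 and Gfer. Its mean rose from 519 ± 22.6 to 1171 ± 275 CPM (log2 fold change 1.17, standard error 0.16, adjusted p = 1.4e-04 by edgeR). Oma1, the protease that starts the relay, fell from 31.8 ± 2.74 to 17.2 ± 1.66 CPM (log2 fold change -0.89), and Opa1, the fusion GTPase that OMA1 cleaves, from 155 ± 2.87 to 100.3 ± 8.53 CPM (log2 fold change -0.63), both on the TMM scale.

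**Figure D4:**
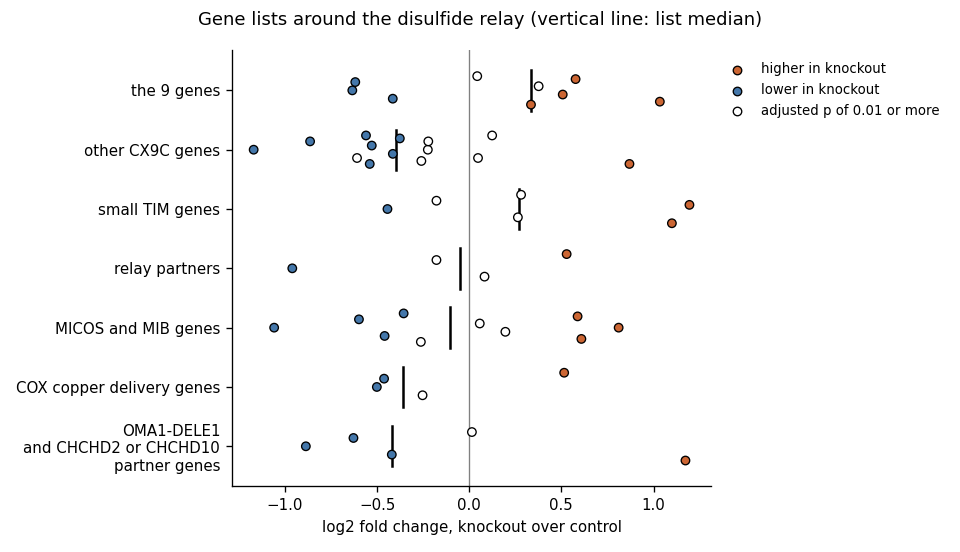
Log2 fold change, knockout over control, of each gene of 7 lists (1 point per gene, 1 list per line of the vertical axis), coloured by the edgeR call at an adjusted p under 0.01, with the list median as a vertical line. All 7 lists hold calls in both directions on the TMM scale, as do all genes (23.6% higher, 21.1% lower). Of the 14 other CX9C genes, 7 are lower on the TMM scale, against 1 with library totals alone.

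Markers of other cell types and of fibre types were read beside these results, and their part in the results was not tested apart from the 2 covariate fits given here. Slow fibre markers were 17.1 to 85.8 CPM in sum in the control and 128 to 858 CPM in the knockout libraries, with 2 of 4 higher. With their mean log2 CPM as a covariate, a fit added after the data were seen, 0 of the 9 genes rose and 1, Chchd3, fell by edgeR. At an unadjusted p under 0.05 these counts were 1 and 2. Over all genes this fit called 1139 higher and 1247 lower, against 3303 and 2962 without the covariate. Chchd10 had a log2 fold change of 0.25 (adjusted p = 0.30 by edgeR). The list separated the groups, so that covariate and label cannot be told apart. None of 7 adipocyte markers passed the test (249 to 1497 against 712 to 2591 CPM in sum). With them as a covariate 3 of the 9 genes rose and 3 fell, Cox19 being lost (adjusted p = 0.011 by edgeR). That fit called 2746 higher and 2557 lower over all genes. None of 4 brown adipocyte markers passed (1.72 to 75.6 against 6.07 to 102 CPM), and Ucp1 was at 0 in 1 control library, a count that allows up to 3.

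Of 6 macrophage markers 1 was higher (46.4 to 111 CPM in sum in the control and 90.4 to 163 CPM in the knockout libraries). Of 5 endothelial markers 4 were lower (243 to 360 against 175 to 196 CPM), of 4 fibroblast markers 2 were lower (610 to 963 against 333 to 457 CPM), and of 2 satellite cell markers 1 was higher (3.07 to 4.87 against 6.13 to 7.75 CPM). None of 3 Schwann cell markers (23.8 to 83.4 against 38.4 to 62.0 CPM) and none of 3 erythroid markers (35.9 to 87.7 against 7.88 to 83.1 CPM) passed the test.

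Over the 8 libraries, the pattern of Chchd10 was closest to that of Wdr45 (Pearson r = 0.994 of log2 CPM), Polr2g (0.994), Mkrn1 (0.993), Cdk2ap2 (0.992) and 3110040N11Rik (0.989), out of 11047 genes with a mean count of at least 50. Ghitm had r = 0.980 and rank 24. Chchd4 had 0.901 (rank 1200), Cox19 0.870 (rank 1775), Chchd6 0.782, Gfer 0.777 and Cox17 0.464. Chchd2 had -0.762, Chchd3 -0.799 and Chchd7 -0.835. These libraries share 2 groups and their sequencing, so a difference between the groups enters every r. How far the labels set the r values was not tested, and the r values are given as a description.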

How the data were processed

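RNA-seq was analysed from 4 knockout and 4 control quadriceps, each from a separate mouse by its label. The authors captured polyA RNA, prepared strand-specific libraries (NEBNext Ultra II Directional), and used bcl2fastq 2.20.0.422, cutadapt and STAR 2.5.4b on GRCm38, per the labels. The authors counted read pairs in exons with Rsubread, deposited as raw counts for each gene, without duplicate or multimapping reads. The annotation release and the use of strand in the counting are not given in the sources used here. The deposited FPKM values were used only as a check (Pearson r = 0.9999 with CPM per kb of exon, the levels per kb). The authors' fold changes and p-values from DESeq2 1.32.0 in the same table were not used.

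All 14012 genes were fitted with edgeR 4.0.16 (glmQLFit, glmQLFTest, TMM factors, R 4.3.3) with the label as the only term, Benjamini-Hochberg adjustment and a threshold of 0.01. CPM uses TMM-scaled library sizes, and log2 CPM a prior count of 2. Log2 ratios of raw counts of 4 gene pairs were put to an exact two-sided permutation test over 70 assignments. Alternatives were RLE, upper-quartile and no scaling factors, filterByExpr, DESeq2 1.42.0, a threshold of 0.05, the replicate block, marker covariates, and leaving out each library. The code was tested on simulated data. Depth was 16017565 to 20361144 counts per library, and a count of 0 allows up to 3 counts, for counting error only.

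All 9 genes were named, and from each pathway list up to 3 called genes with the largest absolute log2 fold change. For Chchd10 the 5 genes of highest Pearson r were named. Ghitm's rank and the motifs were looked up after values were seen. The members, the lists and the motifs were chosen with earlier results of these data known. Coding sequences came from GENCODE M21 transcripts, and promoter windows from RefSeq (GRCm38.p6). No protein sequences were used here.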

Additional observations from a re-analysis of the deposited data

Results flagged for a closer look

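The CPM of the 9 genes and the 4 log2 ratios were screened in each group, 26 groups of 4 libraries in all, for a library far from the others, and 1 was found. Cox19 in control library 1 was 24.2 CPM, below 26.4 to 26.8 CPM in the other controls, and this gap was 0.848 of the range of the group, above Dixon's 95% critical value for 4 samples. Chance alone flags about 1 in 20 such groups.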

How the results depend on the processing

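Among the 9 genes, 4 rose and 3 fell with TMM factors, and 3 to 5 rose and 3 fell when each library was left out in turn. With library totals alone 0 fell (0 also at an unadjusted p under 0.05 in edgeR), the log2 fold changes of Chchd2 (0.049), Chchd3 (0.036) and Chchd7 (0.26) turned, and the counts of higher and lower genes were 8 and 1 among other CX9C genes, 6 and 0 among small TIM genes, 7 and 1 among MICOS and MIB genes, 2 and 0 among copper delivery genes, and 2 and 0 among partners of CHCHD2 and CHCHD10. Among relay partners 3 were higher and 1 lower. The median of all genes was then 0.73. The sign of Cox17 turned with RLE factors (-0.0018), DESeq2 (-0.0016), the slow fibre covariate (-0.22), and without knockout replicate 1 (-0.0073) or 4 (-0.015), with a range of -0.015 to 0.11 over the libraries left out. DESeq2 called 2 small TIM genes lower. At an adjusted p under 0.05, 11 other CX9C genes were lower, and 4 small TIM genes were higher and 2 lower. Over all 14012 genes this threshold gave 4436 higher and 3848 lower calls, against 3303 and 2962 at 0.01. With the slow fibre covariate, added after the data were seen, 0 of the 9 genes rose and 1 fell (1 and 2 at an unadjusted p under 0.05). Over all genes this fit gave 1139 higher and 1247 lower calls. Higher and lower calls were 0 and 2 among other CX9C genes, 1 and 0 among small TIM genes, and 1 and 2 among MICOS and MIB genes. They were 0 and 0 among copper delivery genes, 0 and 1 among partners of CHCHD2 and CHCHD10, and 0 and 1 among relay partners. Without knockout replicate 4 Sco1 was no longer called (adjusted p = 0.012 by edgeR) and no copper delivery gene was higher, so that this count ranged from 0 to 1 over the libraries left out. Of the other CX9C genes, 5 were lower without control replicate 2 and 6 without control replicate 3, where Ndufs5 was not called. With the adipocyte covariate 5 of them were lower. Of the MICOS and MIB genes, 3 were lower without control replicate 1, 2 or 3, where Apool was not called, and 5 without control replicate 4. The cause was not tested for these changes.

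The check did not decide whether the replicate numbers pair the samples. The correlations of same-numbered deviations were 0.118, 0.0031, 0.42 and 0.138, and 3 of 4 numbers matched best with themselves. With the replicate block 4 genes rose and 3 fell, and all genes gave 3215 higher and 2908 lower calls. In the blocked sign-flip test of the ratios, whose smallest exact p over 16 flips is 0.125, the log2 differences of 1.19 (Chchd10 to Chchd2), -1.67 (Chchd3 to Chchd6) and -0.30 (Cox17 to Cox19) had p = 0.125, which says nothing about their stability. With each library left out they were 1.14 to 1.23, -1.79 to -1.57 and -0.33 to -0.25.

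Depth limits the precision of scarce genes, such as Timm8a1 with 24 to 37 and Chchd6 with 49 to 70 counts per control library.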
